A study of Mus musculus with 6 samples.

Results

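The 10 genes described here encode a part of the Nodal and activin signalling pathway. They are the ligand Nodal, the co-receptor Tdgf1 (Cripto), the secreted antagonists Lefty1, Lefty2 and Cer1, and the type II receptor Acvr2b. The others are the SMAD proteins Smad2, Smad3 and Smad7 and the SMAD partner Foxh1. All 10 were picked by symbol from the 22332 gene symbols of a count table, were listed there and passed the filter on low counts. The table holds total RNA, depleted of ribosomal RNA, from CGR8 cells, 1 line of mouse embryonic stem cells grown with 10% fetal bovine serum and added LIF. One group received a pool of non-targeting siRNAs (siCtrl, n = 3) and the other a pool against Rsl24d1, whose product helps to assemble the large subunit of the ribosome (siRSL24D1, n = 3). RNA was taken after 48 hours in both. Both groups were transfected, and untransfected cells were not analysed here. The design text calls the triplicates independent without saying what separates them, so p-values measure the spread between these libraries.

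Nodal and the activins are ligands of the TGF-beta family. They bind type II receptors, such as the product of Acvr2b, and type I receptors, which phosphorylate SMAD2 and SMAD3, and these enter the nucleus with SMAD4 and act on target genes with partners such as FOXH1. Nodal, unlike activin, also needs a co-receptor of the EGF-CFC family, Cripto or Cryptic. The Lefty proteins and Cerberus block Nodal outside the cell, SMAD7 blocks the receptors inside it, and Nodal, Lefty1, Lefty2 and Smad7 are themselves known targets of the pathway. Mouse embryonic stem cells make several of these components themselves, and in the embryo the pathway patterns the epiblast and induces mesoderm and endoderm.

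Library totals lay between 30943635 and 35214000 estimated counts. Rsl24d1 was at 97.9 to 102.7 CPM (counts relative to the library total, scaled between libraries by TMM) in siCtrl and at 52.1 to 55.6 CPM in siRSL24D1, so the knockdown left about 0.538 of the mRNA. All 10 embryonic stem cell markers on a fixed list had counts in every library, with a summed level of 2409 to 2750.4 CPM in siCtrl and 2196 to 2314 CPM in siRSL24D1. siCtrl 3 lay at a distance of 0.309 and 0.335 from the other controls (root mean square difference in log2 CPM over the genes tested), against 0.255 between siCtrl 1 and siCtrl 2 and 0.284 to 0.312 among the siRSL24D1 libraries. Values without siCtrl 3 are given beside the members that rest on it.

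Of the 10 genes, 3 rose in siRSL24D1 (Nodal, Smad2 and Foxh1), 2 fell (Tdgf1 and Cer1) and 5 did not pass the test (Lefty1, Lefty2, Acvr2b, Smad3 and Smad7). The ligand and its co-receptor thus moved in opposite directions: Nodal was 1.37-fold higher and Tdgf1 was at 0.65 of its siCtrl level. Of all 15084 genes tested, 41.2% were past the same threshold (edgeR's quasi-likelihood test, Benjamini-Hochberg adjusted p under 0.05), 21.2% higher and 20.0% lower. The members' share, 50%, is therefore close to that of genes in general. Their median log2 fold change was 0.03, beside 0.02 over all genes tested, and their median size of change, regardless of sign, was 0.17, beside 0.20. The groups did not overlap for 5 of the 10 genes, the same 5 that were past the test (3 higher and 2 lower). Over all genes tested that share was 53.0%, with 26.8% higher and 26.2% lower. In bulk RNA, fewer cells that express a gene and less of its RNA per cell cannot be told apart.

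**Figure D1:**
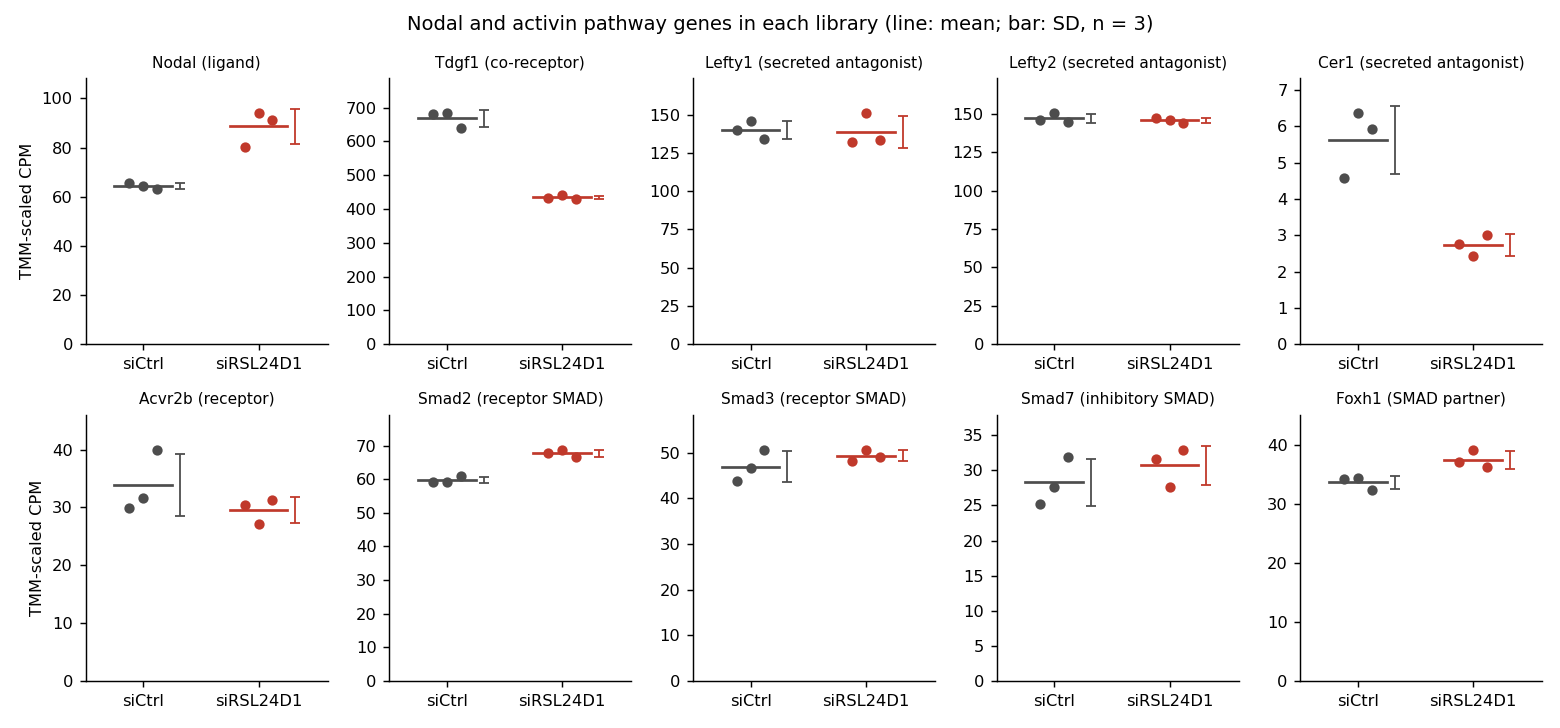
Level of each of the 10 genes in TMM-scaled CPM (vertical axes from 0) in the 3 siCtrl libraries (grey) and the 3 siRSL24D1 libraries (red), with the mean as a line and the SD as a bar. The groups are apart for Nodal, Tdgf1, Cer1, Smad2 and Foxh1 and overlap for the other 5.

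Nodal (ENSMUSG00000037171, chromosome 10, 61417972 to 61425338, plus strand, GRCm38) encodes the ligand. It was measured at 65.7, 64.4 and 63.3 CPM in siCtrl 1, 2 and 3 and at 80.3, 94.1 and 91.4 CPM in siRSL24D1 1, 2 and 3. All 3 knockdown libraries were above all 3 controls, and siRSL24D1 1 was the lowest of them. The means were 64.5 ± 1.17 and 88.6 ± 7.28 CPM (SD, n = 3 each), so that the log2 fold change was 0.46 ± 0.06 (standard error, adjusted p = 0.000774, edgeR). The change of Nodal was larger than that of 79.8% of the genes tested.

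Tdgf1 (ENSMUSG00000032494, chromosome 9, 110939603 to 110946158, minus strand) encodes Cripto, the co-receptor that lets Nodal bind its receptors and a familiar marker of undifferentiated stem cells. It had 681, 684 and 638 CPM in the siCtrl libraries and 433, 440.1 and 429.8 CPM in the siRSL24D1 libraries. The siRSL24D1 values lay close together, and the highest of them was far below the lowest control. The log2 fold change was -0.62 with a 95% interval from -0.72 to -0.52 (edgeR adjusted p = 4.4e-05). Of the distinct 31-base words in the Tdgf1 transcripts, 12.5% also occur in transcripts of other genes, nearly all of them in the pseudogene Tdgf1-ps1. The Tdgf1 counts were whole numbers in all 6 libraries at a tolerance of 0.0015.

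The co-receptor family has a second member, Cfc1 (Cryptic), which was expressed at a much lower level and also fell. It was at 5.26, 5.68 and 5.39 CPM in siCtrl and at 3.25, 2.57 and 2.38 CPM in siRSL24D1, a log2 fold change of -0.999 (edgeR adjusted p = 0.000703). Both EGF-CFC co-receptor genes were thus lower in every siRSL24D1 library than in any siCtrl library.

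Cer1 (ENSMUSG00000038192, chromosome 4, 82881751 to 82885148, minus strand) encodes Cerberus, a secreted protein that binds Nodal and BMP ligands. It was the least abundant of the 10 genes, at 4.57, 6.36 and 5.92 CPM in siCtrl and at 2.77, 2.42 and 3.01 CPM in siRSL24D1. Every knockdown library was below every control, and siCtrl 1 was the lowest control. Cer1 had the largest change among the members, a log2 fold change of -1.04 with a 95% interval from -1.39 to -0.69 (edgeR adjusted p = 0.0012). That change was larger in size than those of 96.0% of the genes tested. Leaving out 1 library at a time gave -1.17 to -0.94. Cer1 is also a marker of visceral and definitive endoderm. The 12 endoderm markers on a fixed list summed to 46.8 to 49.7 CPM in siCtrl and to 44.0 to 50.2 CPM in siRSL24D1, with Sox7, Afp, Ttr and Amn under 1 CPM in all libraries and none at 0 in all of them. Of the 8 endoderm markers tested, Gata4 and Gata6 rose and Dab2 and Pdgfra fell, or 50.0%, beside 41.2% of all genes tested. Pdgfra and Dab2 had the highest means in siCtrl, 23.7 and 11.2 CPM, and so weigh most in the sum. The median log2 fold change of the 8 was 0.27, beside 0.02 over all genes tested.

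The promoters of the called members that RefSeq's promoter table lists are shown here, since these 3 genes carry the largest changes. Each run is the 250 bases before the annotated start, 5′ to 3′ on the gene's strand (GRCm38.p6). Capitals mark matches on either strand to AATNNACA, the core of sites bound by FOXH1, and to GTCTG, the letters of a SMAD-binding box, so that a match on the other strand shows as its reverse complement. The windows are chr9:110946159-110946408 for Tdgf1, chr4:82885152-82885401 for Cer1 and chr10:61417722-61417971 for Nodal.
Tdgf1: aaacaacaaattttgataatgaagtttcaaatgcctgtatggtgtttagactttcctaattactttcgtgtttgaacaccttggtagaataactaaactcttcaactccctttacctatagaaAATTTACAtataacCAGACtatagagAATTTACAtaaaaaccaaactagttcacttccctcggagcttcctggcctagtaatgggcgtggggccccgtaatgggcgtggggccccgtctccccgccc
Cer1: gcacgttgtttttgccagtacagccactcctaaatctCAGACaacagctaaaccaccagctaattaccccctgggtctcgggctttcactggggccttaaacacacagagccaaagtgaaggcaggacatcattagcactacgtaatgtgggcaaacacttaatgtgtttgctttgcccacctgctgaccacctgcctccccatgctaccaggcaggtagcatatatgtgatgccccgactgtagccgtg
Nodal: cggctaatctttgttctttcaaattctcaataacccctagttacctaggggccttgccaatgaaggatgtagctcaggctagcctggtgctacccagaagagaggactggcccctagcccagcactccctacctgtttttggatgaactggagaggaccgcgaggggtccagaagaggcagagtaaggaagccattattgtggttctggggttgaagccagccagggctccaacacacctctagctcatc

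The Tdgf1 window holds 2 matches to the FOXH1 letters, both AATTTACA, with their first bases 127 and 101 bases before the start, and 1 match to the SMAD letters between them, at 113 bases. The Cer1 window holds 1 match to the SMAD letters, at 213 bases, and none to the FOXH1 letters. The Nodal window holds neither. The table lists promoters for 5 of the 10 members, and of those the Acvr2b window holds 1 SMAD match and the Smad3 window holds neither. Among 32851 promoter windows of this length, 10.9% hold the FOXH1 letters and 42.2% the SMAD letters. These matches describe the letters only.

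Lefty1 (ENSMUSG00000038793, chromosome 1, 180935022 to 180938400) and Lefty2 (ENSMUSG00000066652, chromosome 1, 180893108 to 180899103), both on the plus strand, are neighbouring genes for secreted proteins that hold back Nodal. Lefty1 was at 139.9, 146 and 134 CPM in siCtrl and at 132, 151 and 134 CPM in siRSL24D1. Lefty2 was at 146, 150.5 and 145 CPM in siCtrl and at 147, 146 and 144 CPM in siRSL24D1. For both genes the groups overlapped, and siRSL24D1 2 held the highest Lefty1 level of the 6. The log2 fold change of Lefty1 was -0.01 with a 95% interval from -0.15 to 0.13, and that of Lefty2 was -0.01 with an interval from -0.10 to 0.07 (edgeR adjusted p = 0.891 and 0.791). The sign of both changed with the scaling.

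The split between the 2 Lefty genes is an estimate. Of the 31-base words in the Lefty1 transcripts, 25.7% also occur in Lefty2, and 17.2% of those in Lefty2 occur in Lefty1. Neither gene had a whole count in any library, while their sum was whole in all 6 at a tolerance of 0.0015, from 8776 estimated counts in siRSL24D1 1 to 10418 in siRSL24D1 2. Lefty1 took 48.1% to 49.3% of that sum in siCtrl and 47.3% to 50.9% in siRSL24D1. The sum does not depend on the split. Fitted as 1 gene, it was at 286, 297 and 279 CPM in siCtrl and 279.6, 297 and 278 CPM in siRSL24D1, a log2 fold change of -0.01 with a 95% interval from -0.11 to 0.09 (edgeR adjusted p = 0.837). That interval holds no change as large as that of Nodal.

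Ratios within a library do not depend on how libraries are scaled. The sum of the Lefty counts was 4.36, 4.603 and 4.41 times the Nodal count in siCtrl and 3.48, 3.16 and 3.04 times in siRSL24D1. Each knockdown library thus had fewer Lefty counts per Nodal count than any control. Per kilobase of exon, Tdgf1 was 8.29, 8.48 and 8.05 times as abundant as Nodal in siCtrl and 4.30, 3.74 and 3.76 times in siRSL24D1, again with no overlap. The ratio of Cer1 to Nodal counts averaged 0.087 ± 0.016 in siCtrl and 0.031 ± 0.0047 in siRSL24D1 (SD, n = 3 each). These ratios describe changes already tested gene by gene, and no separate test was made of them.

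**Figure D2:**
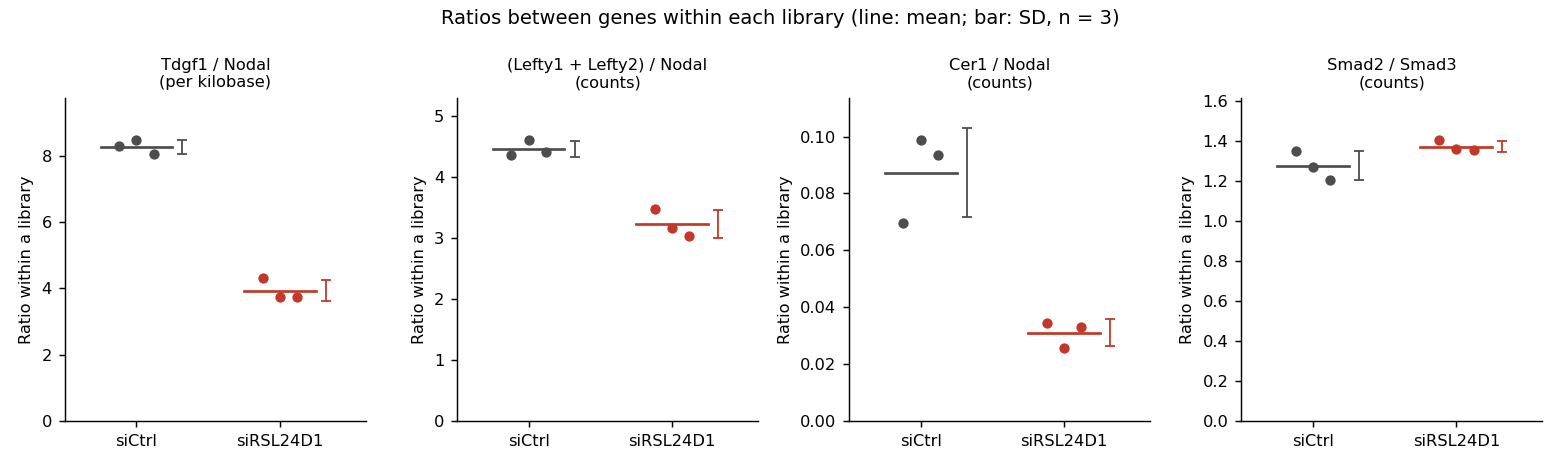
Ratios between genes within each library (vertical axes from 0) for siCtrl (grey) and siRSL24D1 (red), with the mean as a line and the SD as a bar. The ratios to Nodal are lower in all 3 siRSL24D1 libraries, with means of 8.27 and 3.93 for Tdgf1 per kilobase, and the Smad2 to Smad3 ratios of the groups lie next to each other (up to 1.353 and from 1.355).

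Acvr2b (ENSMUSG00000061393, chromosome 9, 119402118 to 119434995, plus strand) encodes a type II receptor shared by activins, Nodal and some BMPs. It was at 29.98, 31.6 and 39.98 CPM in siCtrl and at 30.4, 27.1 and 31.3 CPM in siRSL24D1. The groups overlapped, and siCtrl 3 stood above the other 5 libraries. The log2 fold change was -0.20 with a 95% interval from -0.45 to 0.05 (edgeR adjusted p = 0.186). Without siCtrl 3 it was -0.07 (edgeR adjusted p = 0.459). Acvr2a, the other activin type II receptor, was at -0.08 (edgeR adjusted p = 0.35).

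Of the 2 receptor-regulated SMADs of the pathway, Smad2 rose and Smad3 did not pass the test. Smad2 was at 59.2, 59.3 and 60.9 CPM in siCtrl and at 67.8, 68.7 and 66.5 CPM in siRSL24D1, with little spread in either group. Its log2 fold change was 0.18 with a 95% interval from 0.09 to 0.27 (edgeR adjusted p = 0.00772), a small change that kept its call without any 1 library (edgeR adjusted p = 0.0106 to 0.0421). Smad3 (ENSMUSG00000032402, chromosome 9, 63646767 to 63757994, minus strand) was at 43.7, 46.6 and 50.4 CPM in siCtrl and at 48.2, 50.6 and 49.1 CPM in siRSL24D1. The Smad3 groups overlapped through siCtrl 3, and the log2 fold change was 0.07 with a 95% interval from -0.06 to 0.21 (edgeR adjusted p = 0.362). It was 0.11 without siCtrl 3 (edgeR adjusted p = 0.096) and 0.02 without siCtrl 1 (edgeR adjusted p = 0.783). The intervals of the 2 genes overlap, which is not a test of a difference, and a difference between their changes was not tested. The ratio of Smad2 to Smad3 counts was 1.21 to 1.353 in siCtrl and 1.355 to 1.41 in siRSL24D1, so the groups were next to each other without overlapping. Smad4, the partner both share, rose by 0.18 on the log2 scale (edgeR adjusted p = 0.0329). Its highest control, siCtrl 3 at 95.1 CPM, was close to its lowest knockdown library, siRSL24D1 2 at 97.6 CPM. The Smad4 call was not checked under other settings.

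Smad7 encodes the inhibitory SMAD, which is induced by TGF-beta family signals and recruits ubiquitin ligases to the receptors. It was at 25.3, 27.6 and 31.97 CPM in siCtrl and at 31.6, 27.6 and 32.9 CPM in siRSL24D1. The groups overlapped, with siCtrl 3, siRSL24D1 1 and siRSL24D1 3 above the other 3 libraries. The log2 fold change was 0.12 with a 95% interval from -0.10 to 0.34 (edgeR adjusted p = 0.36), and single libraries moved it in either direction. It was 0.20 without siCtrl 3 (edgeR adjusted p = 0.0857) and 0.19 without siRSL24D1 2 (0.153), but 0.04 without siCtrl 1 (0.757) and 0.07 without siRSL24D1 3 (0.684). The same 3 libraries held the highest levels of the SMAD coactivators Ep300 (84.9 to 90.8 CPM, against 47.5 to 57.6 CPM in the other 3) and Crebbp (75.6 to 78.1 CPM, against 34.6 to 43.8 CPM), a pattern noticed after the values were seen. Col1a1, a collagen gene, followed the same pattern (44.2 to 51.5 CPM, against 20.8 to 29.0 CPM). The part of that library difference in the values of Smad7 and of other genes was not tested.

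Foxh1 (ENSMUSG00000033837, chromosome 15, 76668225 to 76669948, minus strand) encodes the forkhead factor that brings SMAD2 and SMAD3 to Nodal target genes. It was at 34.3, 34.4 and 32.4 CPM in siCtrl and at 37.1, 39.2 and 36.2 CPM in siRSL24D1. All knockdown libraries were above all controls by a small margin. The log2 fold change was 0.15 with a 95% interval from 0.04 to 0.27 (edgeR adjusted p = 0.042). This call was lost without any 1 of the 6 libraries (edgeR adjusted p = 0.0587 to 0.122), with DESeq2 size factors (0.0637) and with upper-quartile scaling (0.0989). It was also lost without the low-count filter (0.0654), in the DESeq2 test (0.154) and at a threshold of 0.01. It was kept with library totals (edgeR adjusted p = 0.0171), the replicate block (0.035) and a filter of at least 1 CPM in 3 libraries (0.0364). It was also kept with the length correction (0.00343, and 0.00575 with the block) and in limma-voom (0.0419).

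**Figure D3:**
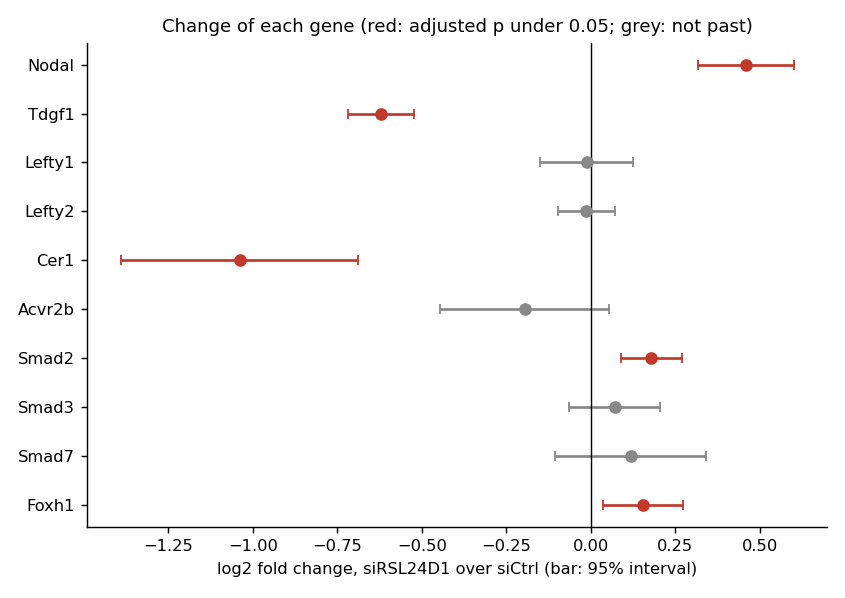
Log2 fold change of siRSL24D1 over siCtrl for each gene (horizontal axis) with its 95% interval from the edgeR fit, red where the adjusted p was under 0.05. The intervals of Nodal, Smad2 and Foxh1 lie above 0, those of Tdgf1 and Cer1 below 0, and the others include 0.

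Per kilobase of exon (exons of all GENCODE M21 transcripts of a gene merged), the genes spanned a wide range of levels. In siCtrl the co-receptor Tdgf1 was highest at 255 ± 9.73 CPM per kilobase, 3.2 times Lefty1 (79.7 ± 3.34), followed by Lefty2 (56.4 ± 1.14), Nodal (30.8 ± 0.56) and Foxh1 (24.7 ± 0.81). Acvr2b (8.62 ± 1.37), Smad3 (8.47 ± 0.61), Smad2 (6.81 ± 0.11) and Smad7 (6.26 ± 0.75) formed a lower group, and Cer1 (3.23 ± 0.54) was last. The ranges of Acvr2b and Smad3 overlapped, as did those of Smad2 and Smad7, so their order is not resolved. The order of Lefty1 and Lefty2 rests on the estimated split and on their merged exon lengths, 1758 and 2611 bases. Before division by length, Lefty1 averaged 140 CPM and Lefty2 147 CPM in siCtrl. In siRSL24D1 the first 5 kept their order, with Tdgf1 at 166 ± 2.03 and Nodal at 42.3 ± 3.48 CPM per kilobase, and the ranges of Acvr2b overlapped with those of Smad2 and of Smad7.

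**Figure D4:**
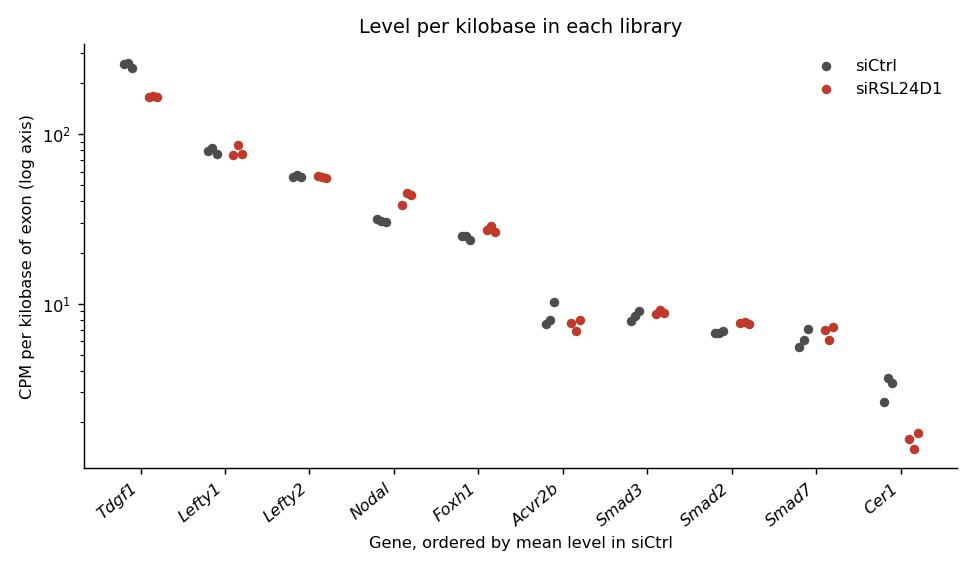
Level per kilobase of exon (log axis, CPM per kilobase) of each gene in the siCtrl (grey) and siRSL24D1 (red) libraries, 1 point per library, ordered by the siCtrl mean. Tdgf1 stays highest and Cer1 lowest in both groups, and the gap between Tdgf1 and Nodal is smaller in siRSL24D1.

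Other genes of the pathway were taken from fixed lists of 48 genes, of which 45 were tested; 13 rose and 4 fell, or 37.8% in all, beside 41.2% of all genes tested. Leaving out 1 library moved these counts to 6 to 14 higher and 2 to 6 lower: 7 higher without siCtrl 1, 7 higher and 2 lower without siCtrl 2, and 6 higher and 2 lower without siRSL24D1 3. Their median log2 fold change was 0.07.

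Among ligands of the family and the convertases that cleave them, 4 of 12 tested genes rose and 1 fell. That is 41.7%, beside 41.2% of all genes tested (21.2% higher and 20.0% lower). The genes that rose include all 3 convertases: Pcsk5, from 2.36 ± 0.61 to 4.28 ± 0.60 CPM (log2 fold change 0.85, edgeR adjusted p = 0.00981), Furin (0.28) and Pcsk6 (0.23), of which the proteins of Furin and Pcsk6 cut the Nodal precursor. The ligand Tgfb2 rose by 0.40 and Tgfb3 fell by 0.74. The activin subunit genes Inhba and Inhbb and the inhibin subunit gene Inha had log2 fold changes of -0.38, -0.32 and -0.72 and did not pass (edgeR adjusted p = 0.0727 to 0.127). Gdf3, a Nodal-related ligand of stem cells, was at 46.1 ± 4.28 and 45.3 ± 1.74 CPM, a log2 fold change of -0.02 with a 95% interval from -0.19 to 0.14. Gdf1, another relative, was at 0.90 ± 0.21 and 0.75 ± 0.27 CPM.

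Among receptors and co-receptors, 3 of 6 tested genes rose and 2 fell, or 83.3%, beside 41.2% of all genes tested. The list is short and was chosen with earlier results of these data known, so this share is a description only. The 3 that rose, Tgfbr1, Tgfbr2 and Tgfbr3, encode the receptors of TGF-beta itself. Tgfbr1 averaged 83.1 ± 1.41 CPM in siCtrl, against 99.9 ± 3.53 CPM in the knockdown (log2 fold change 0.27), Tgfbr2 was at 0.41 and Tgfbr3 at 0.30. Tgfbr3 lost its call in the DESeq2 test (adjusted p = 0.0534) and without siCtrl 1, siRSL24D1 1 or siRSL24D1 3 (edgeR adjusted p = 0.0533 to 0.0699). Beside Cfc1, the gene that fell was Acvr1b, the type I receptor of Nodal and activin, with 36.1 ± 0.60 CPM in siCtrl and 31.7 ± 1.33 CPM in siRSL24D1 (log2 fold change -0.19, edgeR adjusted p = 0.0174).

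Of 6 tested extracellular inhibitors, 1 rose and none fell (5 were not past the test). That is 16.7%, beside 41.2% of all genes tested. Fst, which encodes follistatin, the activin-binding protein, was at 30.8, 25.8 and 32.3 CPM in siCtrl and at 53.8, 59.1 and 59.6 CPM in siRSL24D1. Every knockdown library was above every control, and the log2 fold change was 0.96 (edgeR adjusted p = 0.000125). Dand5, which like Cer1 encodes a Nodal antagonist of the Cerberus family, was at 2.45 ± 0.45 and 2.60 ± 0.07 CPM (edgeR adjusted p = 0.699).

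Among SMAD partners and regulators, 5 of 21 tested genes rose and 1, Tgif2, fell, or 28.6%, beside 41.2% of all genes tested. Smurf1, a ubiquitin ligase that marks SMADs and receptors for degradation, averaged 34.2 ± 0.57 CPM in siCtrl, against 45.7 ± 1.99 CPM in the knockdown, and its log2 fold change was 0.42 (edgeR adjusted p = 0.000392). Pmepa1, a target and inhibitor of the pathway, was at 0.35, Rnf111, a ligase that removes SMAD repressors, at 0.32 and the corepressor gene Ski at 0.32. Pmepa1 lost its call without siCtrl 1, siCtrl 2 or siRSL24D1 3 (edgeR adjusted p = 0.069 to 0.0871), and Rnf111 without siCtrl 1, siCtrl 2, siRSL24D1 1 or siRSL24D1 3 (edgeR adjusted p = 0.0515 to 0.0648). For Rnf111 and Ski, siCtrl 3 was the highest control (43.2 and 66.6 CPM) and siRSL24D1 2 the lowest knockdown library (44.6 and 67.3 CPM). Skil, a SMAD corepressor that the pathway itself induces, had a log2 fold change of -0.10 (edgeR adjusted p = 0.0667).

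Of 13 genes known as targets of Nodal or TGF-beta signals in the early embryo or in culture, all tested, 6 rose and 1 fell, or 53.8%, beside 41.2% of all genes tested (21.2% higher and 20.0% lower). Their median log2 fold change was 0.33, beside 0.02 over all genes tested. The list was chosen with earlier results of these data known, so its share and median are a description only. Mixl1, which encodes a homeodomain factor of the early streak, had 7.23, 7.47 and 8.32 CPM in siCtrl and 15.4, 17.8 and 19.3 CPM in siRSL24D1, a log2 fold change of 1.19 (edgeR adjusted p = 0.000104). Wnt3, a streak ligand, rose by 0.92, Eomes by 0.43, T (Brachyury) by 0.37 and Ctgf by 0.15. Fgf8 fell by 0.35. Gsc was at -0.12 and Foxa2 at -0.04, and neither passed. Of these 13 genes, 6 are also on the list of primitive streak markers and 3 are on the endoderm list, so these lists are not separate observations. The primitive streak markers summed to 168 to 174 CPM in siCtrl and to 219.8 to 242 CPM in siRSL24D1. T was the largest part of that sum, with means of 114 CPM in siCtrl and 148 CPM in siRSL24D1. Whether the target genes changed with the pathway or with the share of streak-like cells was not tested.

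**Figure D5:**
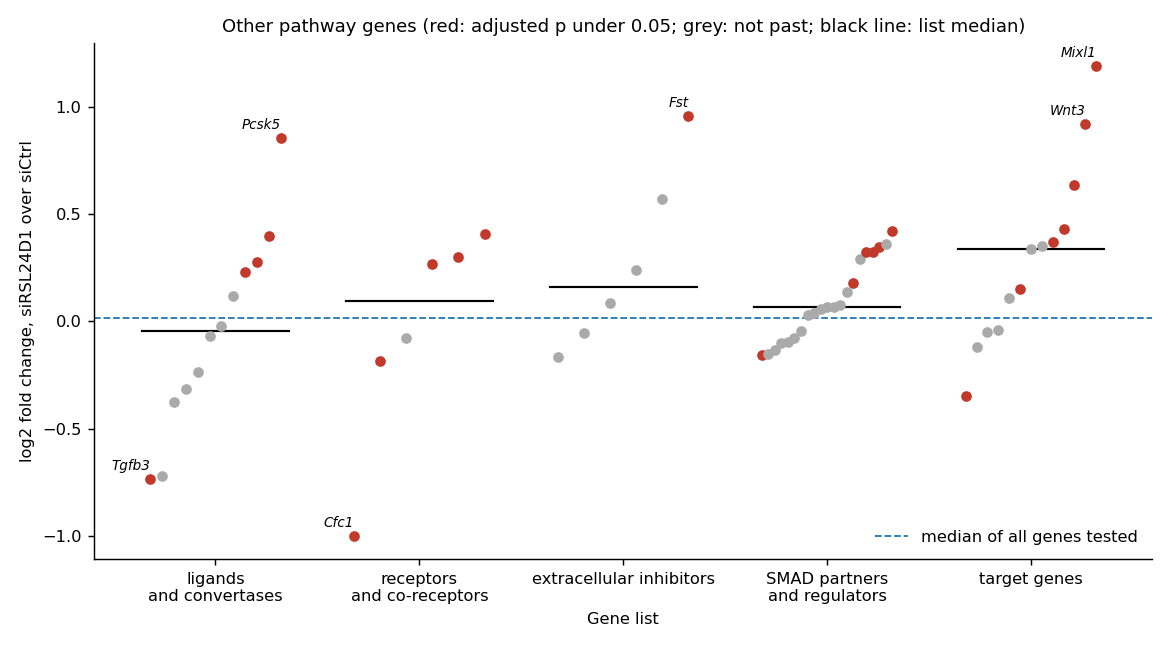
Log2 fold change (vertical axis) of the other pathway genes tested, by list, with red points past an adjusted p of 0.05, a black line at each list's median and a dashed line at the median of all genes tested (0.02). Mixl1 at 1.19 and Fst at 0.96 are the highest and Cfc1 at -0.999 the lowest.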

How the data were processed

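Total RNA of 6 libraries was measured, 3 per group, with groups taken from the sample titles. The deposited file gives, for each gene symbol, an estimated count per library, not scaled between libraries by the authors. The submitters' processing notes name STAR 2.7.0f, Salmon 0.14.1 and the build GRCm38. What each tool did, and with which annotation, filters and strand setting, is not given in the sources used here. Per the labels' protocols the library kit was a stranded total RNA kit. Totals were 30943635 to 35214000 estimated counts.

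Counts were rounded, filtered with filterByExpr (minimum count 10, minimum total 15), scaled by TMM and compared by the two-sided quasi-likelihood test of edgeR 4.0.16 in R 4.3.3 over 15084 genes, with group as the only term. The Benjamini-Hochberg adjustment ran over all of these genes, and a gene was called at an adjusted p under 0.05. Standard errors are the log2 fold change over the root of the F statistic, and 95% intervals use the fit's degrees of freedom. Positions, exon lengths and transcripts came from GENCODE M21 (GRCm38), and promoters from RefSeq (GRCm38.p6).

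The members and lists were chosen with earlier results of these data known. The lists were other ligands and convertases, receptors and co-receptors, extracellular inhibitors, SMAD partners and regulators, target genes, and markers of stem cells, endoderm, primitive streak and fibroblasts. Named were the members, Rsl24d1, the 3 largest called changes with separate groups of each pathway list and the 2 most abundant markers of each marker list; other named genes were chosen after their values were seen, and some genes of the lists are not reported here by name.

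The fit was checked on simulated counts with known changes. Alternatives were 3 other scalings, 2 other filters, DESeq2 1.42.0, limma-voom (limma 3.58.1), a replicate block, a loess correction for exon length (alone and together with the block), a threshold of 0.01 and leaving out each library. Counts that were not rounded, and Lefty1 and Lefty2 summed, were added after seeing the data. The alternatives were read gene by gene only for the members, Rsl24d1 and the list genes named by the rule above. The calls of other named genes, among them Smad4, Ski, Furin, Pcsk6, Acvr1b, Tgif2 and Ctgf, were not checked in this way.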

Additional observations from a re-analysis of the deposited data

How the results depend on the processing

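The falls of Tdgf1 (log2 fold change -0.67 to -0.60) and Cer1 (-1.17 to -0.94) and the rises of Nodal (0.41 to 0.52) and Smad2 (0.14 to 0.20) kept their direction and call under every alternative run. The number of members called was 2 or 3 higher and 2 lower, or 3 lower with the length correction and the replicate block together, where Acvr2b passed (log2 fold change -0.20, adjusted p = 0.0478). The other pathway genes called higher were 13, and 6 at an adjusted p under 0.01 and 6 to 14 without 1 library; those called lower were 4, and 7 with upper-quartile scaling, 7 with the length correction, 2 at an adjusted p under 0.01 and 2 to 6 without 1 library. Over all genes, 1886 rose and 1867 fell at an adjusted p under 0.01, against 3191 and 3021. The cause of these shifts was not tested.

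The sign of Lefty1 turned with library totals (0.0108), the length correction (0.0359, and 0.0352 with the replicate block) and without siCtrl 2, siRSL24D1 1 or siRSL24D1 3 (range over all 6 runs without 1 library, -0.0767 to 0.0225). That of Lefty2 turned with library totals (0.00972) and the length correction (0.0101, and 0.00995 with the replicate block). Pou5f1, a stem cell marker at 0.00, turned with DESeq2 size factors (-0.0103), upper-quartile scaling (-0.0276), no filter (-0.00492), the DESeq2 test (-0.0130) and without siCtrl 3 or siRSL24D1 2 (range over the 6 runs, -0.0759 to 0.0364). None of these values passed the test. Same-numbered libraries deviated together at correlations of -0.22, 0.14 and 0.17. Across numbers, siCtrl 1 and siRSL24D1 2 were at 0.34, siCtrl 3 and siRSL24D1 1 at 0.26, and siCtrl 3 and siRSL24D1 2 at -0.40. Not every library correlated best with its own number, so the numbers were not taken as pairs. With the replicate block 3327 genes rose and 3104 fell, and 3 members were higher and 2 lower. With 3 libraries per group, the 95% intervals of the members not called reach from 0.08 to 0.25 on either side of the estimate. These intervals are not adjusted for the number of genes tested, whereas the calls are. A change larger than its interval's reach can therefore still miss the call, so these widths are not limits of detection. Skil, for example, did not pass although its interval held only negative values.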

Other observations

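Lists of markers of other cell types went both ways, and each count stands beside 41.2% of all genes called (21.2% higher and 20.0% lower). These lists and that of stem cell markers were chosen with earlier results of these data known, so their shares are a description only. Of 8 primitive streak markers, all tested, 5 rose (T, Mixl1, Eomes, Wnt3 and Evx1) and 1, Fgf8, fell, or 75.0%. Of 7 tested fibroblast markers, Col3a1 rose and Col1a2 and Pdgfrb fell (42.9%), with a summed level of 126 to 159 CPM over 8 markers in siCtrl and 123 to 147 CPM in siRSL24D1. Col1a2, a fibrillar collagen gene, had 72.9 ± 4.85 CPM in siCtrl and 52.9 ± 1.71 CPM in siRSL24D1 (log2 fold change -0.46), while Col1a1, for the other chain of the same collagen, was at 29.9 ± 12.6 and 43.2 ± 12.4 CPM (log2 fold change 0.53, edgeR adjusted p = 0.189), which passed without siCtrl 3 (0.91, edgeR adjusted p = 0.0123) and with the replicate block (0.55, adjusted p = 0.0439). Among endoderm markers, Dab2 was at -0.43 and Pdgfra at -0.20, and Pdgfra lost its call without any 1 library other than siRSL24D1 1 (edgeR adjusted p = 0.0565 to 0.139), with library totals (0.0783) and in the DESeq2 test (0.0633).

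Of the 10 embryonic stem cell markers, 2 rose (Zfp42 and Tbx3) and 5 fell (Nanog, Esrrb, Dppa5a, Fgf4 and Utf1), or 70.0%, beside the same 41.2% of all genes. Dppa5a, the most abundant of them, averaged 1158 ± 109 CPM in siCtrl, against 836 ± 38.0 CPM in the knockdown (log2 fold change -0.47, edgeR adjusted p = 0.00134). Pou5f1, the second most abundant, was at 482 ± 37.9 and 482 ± 28.6 CPM. Tdgf1, itself a marker of undifferentiated cells, lay above Pou5f1 in siCtrl and below it in siRSL24D1 in CPM, values that are not per length.

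The type I receptor Acvr1c had 17 counts over the 6 libraries, the ligand gene Inhbe 17 and Mstn 1, and these 3 genes were not tested.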
